A study of Mus musculus with 10 samples.

Results

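Polyamine synthesis and turnover genes were described here as a set of 8 named genes, Odc1, Srm, Sms, Amd1, Sat1, Smox, Azin1 and Oaz1, read from the deposited array values by gene symbol. Of these 8 genes, 6 had a probe set annotated to their symbol, out of 19505 genes with a probe set in all. Each of the 6 had 1 probe set, so the rule of taking the probe set with the highest mean had no choice to make. Amd1 and Oaz1 were matched to no probe set by symbol or gene ID and were not analysed here. All 6 passed the filter on low values that left 13393 genes to test. The genes were picked with differences between the constructs in these arrays already known, so their tests are not independent evidence of a direction.

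The samples were RNA preparations labelled as CD4+ T cells of spleen or lymph node, from C57BL/10 mice, on single-colour Affymetrix arrays. In every group, CD4+ T cells carrying 1 of 2 constructs had been put into immunocompromised mice, and tissue was taken 6 months later. The groups were WT + Oncogenic Vav1 in spleen (4 arrays), WT + GFP in spleen (2 arrays), WT + Oncogenic Vav1 in lymph node (2 arrays) and WT + GFP in lymph node (2 arrays). Vav1 is a signalling protein that acts downstream of the T cell receptor, and GFP, a fluorescent protein, served as the control. The descriptions named 7 animals, 3 of which gave both tissues, and each array of a group came from a different animal. The labels used here do not say which Vav1 mutation was expressed, in what kind of immunocompromised host, of what age, or how many of the host's own lymphocytes remained.

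Polyamines are small positively charged molecules that bind nucleic acids and are needed for growth. Ornithine decarboxylase, the product of Odc1, makes putrescine from ornithine. Spermidine synthase (Srm) and spermine synthase (Sms) then each add an aminopropyl group supplied by S-adenosylmethionine decarboxylase (Amd1). Antizyme (Oaz1) sends ornithine decarboxylase to the proteasome, and antizyme inhibitor 1 (Azin1) binds antizyme and spares the enzyme. In the other direction, spermidine/spermine acetyltransferase (Sat1) marks polyamines for oxidation or export, and spermine oxidase (Smox) turns spermine back into spermidine. Activated and dividing T cells are known for raising Odc1 and their polyamine content, and Odc1 is a textbook target of the transcription factor Myc.

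The DNA just upstream of the annotated start is shown for Odc1 and Smox, whose values ran together across the oncogenic Vav1 arrays, and for Sms and Sat1, which passed no comparison of the constructs, as RefSeq gives it on build GRCm38.p6, 5′ to 3′ on the gene's strand. Capitals mark the E-box CACGTG, the letters bound by Myc and its partner Max, and the GC box GGGCGG, read on both strands, so that it also appears as CCGCCC. In these stretches no match overlapped another. The stretches end before the annotated start of the gene, and no promoter entry was used for Srm or Azin1.
Odc1, chr12:17544623-17544807, plus strand: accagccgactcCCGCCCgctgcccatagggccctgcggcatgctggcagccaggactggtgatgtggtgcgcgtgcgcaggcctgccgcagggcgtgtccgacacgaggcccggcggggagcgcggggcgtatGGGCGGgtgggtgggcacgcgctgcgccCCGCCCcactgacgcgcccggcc
Smox, chr2:131491612-131491857, plus strand: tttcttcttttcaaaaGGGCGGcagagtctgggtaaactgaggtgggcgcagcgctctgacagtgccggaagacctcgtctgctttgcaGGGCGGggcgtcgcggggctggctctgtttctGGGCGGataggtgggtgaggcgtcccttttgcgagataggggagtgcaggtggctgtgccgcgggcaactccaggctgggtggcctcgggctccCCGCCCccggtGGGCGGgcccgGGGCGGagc
Sms, chrX:157492288-157492537, minus strand: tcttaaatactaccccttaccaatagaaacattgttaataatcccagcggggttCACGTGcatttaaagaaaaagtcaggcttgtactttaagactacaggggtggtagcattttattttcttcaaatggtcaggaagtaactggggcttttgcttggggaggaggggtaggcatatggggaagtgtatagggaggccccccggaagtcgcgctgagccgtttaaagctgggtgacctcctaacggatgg
Sat1, chrX:155216450-155216699, minus strand: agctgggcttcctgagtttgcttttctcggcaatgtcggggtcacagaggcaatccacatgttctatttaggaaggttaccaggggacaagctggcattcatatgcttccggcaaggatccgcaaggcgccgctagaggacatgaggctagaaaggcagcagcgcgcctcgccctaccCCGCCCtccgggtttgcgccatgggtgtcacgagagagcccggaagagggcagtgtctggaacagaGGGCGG

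In these upstream stretches Odc1 held 3 GC boxes and no E-box, Smox 6 GC boxes and no E-box, Sat1 2 GC boxes and no E-box, and Sms 1 E-box and no GC box. RefSeq gives Sms a further annotated start, and the window around it, chrX:157491319-157491618, held 4 GC boxes, some of which overlapped, and no E-box. The shares over all promoters are counted in full windows of 300 bases, longer than the stretches shown, and in its full window Odc1 had 4 GC boxes. Among all 32544 promoter windows of 300 bases in the same table, an E-box was found in 7.17% and a GC box in 35.9%. The matches describe the letters in these windows. Bases of the genes outside them were not searched, and the arrays measured no binding.

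The other transcripts on the arrays moved widely with the construct. The transcript for Vav1 itself lay at 9.99 to 10.30 in oncogenic Vav1 spleens against 9.63 and 9.83 in GFP spleens, and at 10.17 and 9.27 in oncogenic Vav1 lymph nodes against 9.52 and 9.69 in GFP lymph nodes, all as log2 values. It did not pass the test in spleen (0.45 ± 0.21 (SE), limma adjusted p = 0.137) or in lymph node (0.11 ± 0.24, adjusted p = 0.80). The spleen groups did not overlap, and the spleen difference passed in 5 of 22 alternative settings, among them a fit of just the spleen arrays (adjusted p = 0.00964). Also among the 5 were fits that left 1 oncogenic Vav1 lymph node array, so that this group's scatter no longer entered the shared spread. Whether the Vav1 probes read the introduced form is not given in the sources used here. T cell markers were present on every array (the mean of 12 genes was at least 7.63), but 11 B cell genes averaged 9.00 to 9.80 in oncogenic Vav1 arrays and 9.54 to 10.74 in GFP arrays, so the preparations were not T cell RNA alone. Neutrophil genes averaged 8.11 to 8.79 in oncogenic Vav1 arrays against 5.91 to 6.10 in GFP arrays. In these bulk samples, fewer cells of a type and less RNA per cell cannot be told apart. The median of the negative control probes was higher on the GFP spleen arrays (5.87 and 5.69) than on the oncogenic Vav1 spleen arrays (5.43 to 5.55).

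The first comparison asked whether the polyamine genes differed with oncogenic Vav1 within each tissue. In spleen, 2 of the 6 genes rose, Odc1 and Srm, and none fell, while 17.1% of all tested genes rose, 9.77% fell and 26.8% changed in either direction. At an unadjusted p under 0.05, 3 of the 6 differed in spleen, a cut that at least 5347 of the 13393 tested genes also met. In lymph node 3 of 6 rose, Odc1, Srm and Azin1, against 7.87% of all tested genes rising, 10.8% falling and 18.7% changing in either direction. Under the unadjusted cut 5 of the 6 differed in lymph node, with Sat1 lower, as did at least 4095 of all tested genes. The median difference of the 6 genes was 0.43 in spleen and 0.88 in lymph node on the log2 scale, beside medians of 0.0019 and -0.02 over all genes tested. With so few genes, chosen with results known, these counts describe the genes and were given no test of their own. Groups of 2 arrays can easily lie apart without a real difference, and how many of all genes did so was not counted.

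**Figure D1:**
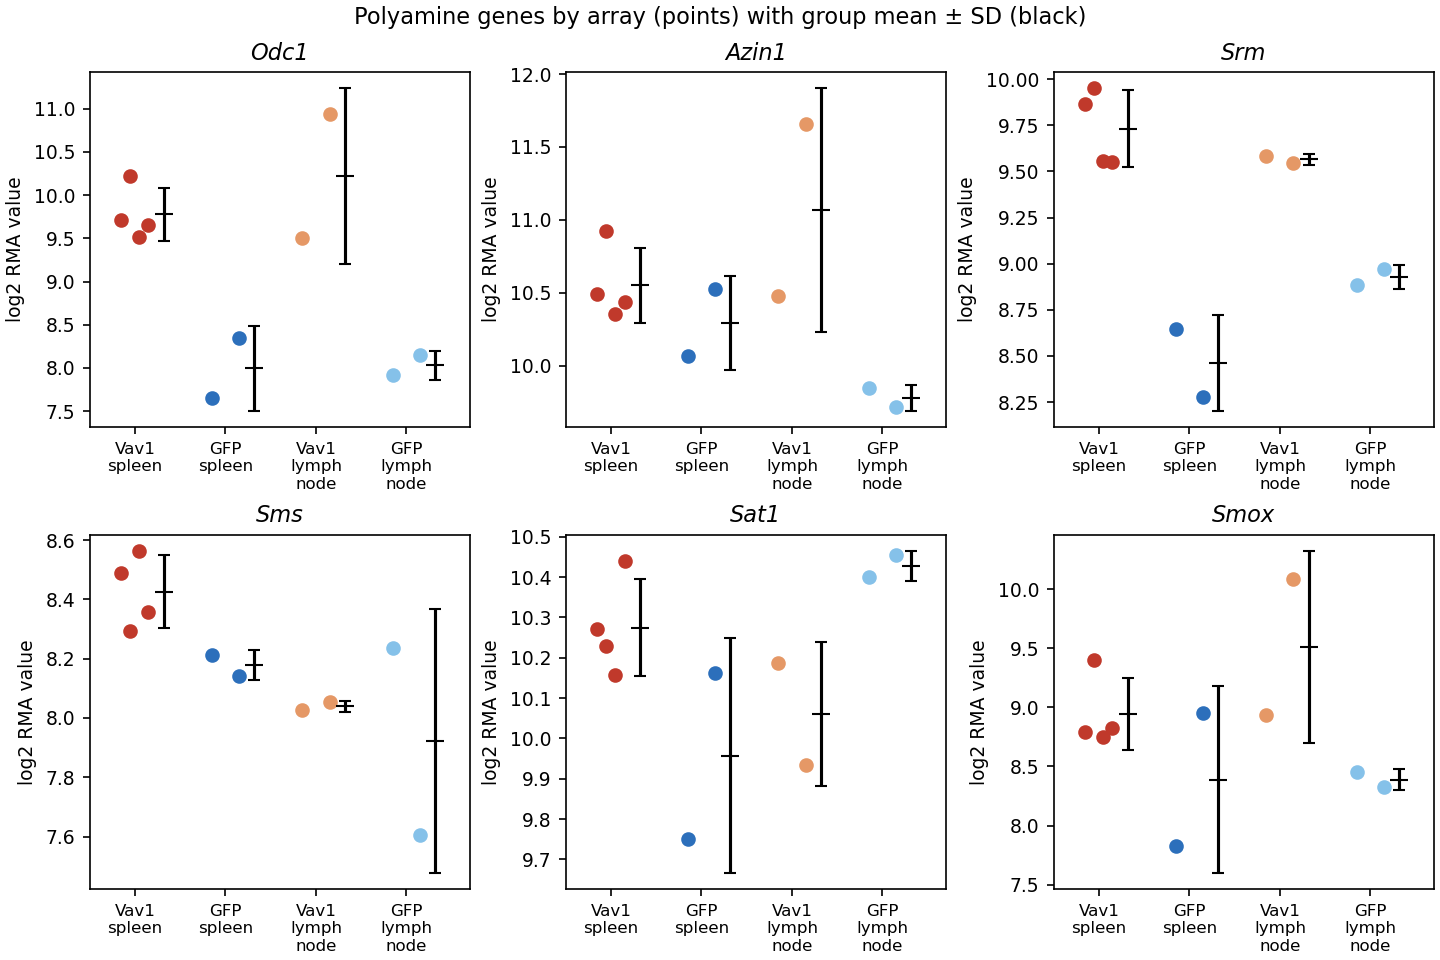
Log2 array value (vertical axis) of the 6 measured polyamine genes, 1 panel a gene, in oncogenic Vav1 spleen, GFP spleen, oncogenic Vav1 lymph node and GFP lymph node; each point is an array and the black marks are the group mean ± SD. All 6 oncogenic Vav1 arrays lie above all 4 GFP arrays for Odc1 (lowest 9.50 against highest 8.35) and Srm (lowest 9.55 against highest 8.97), and the constructs overlap over both tissues for Sms, Sat1, Smox and Azin1.

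Odc1, the entry enzyme, had the widest separation. Its log2 values were 9.71, 10.23, 9.52 and 9.66 in oncogenic Vav1 spleens, against 7.65 and 8.35 in GFP spleens. In lymph nodes they were 9.50 and 10.94 with oncogenic Vav1, against 7.91 and 8.15 with GFP. Every oncogenic Vav1 array was above every GFP array in both tissues, and the single highest value came from oncogenic Vav1 lymph node replicate 2. The group means were 9.78 ± 0.31 (SD, n = 4) in oncogenic Vav1 spleen and 8.00 ± 0.49 (n = 2) in GFP spleen, and 10.22 ± 1.02 (n = 2) in oncogenic Vav1 lymph node and 8.03 ± 0.17 (n = 2) in GFP lymph node. Odc1 was 3.44-fold higher in oncogenic Vav1 spleen (log2 difference 1.78 ± 0.35 SE, limma adjusted p = 0.00531) and 4.56-fold higher in oncogenic Vav1 lymph node (2.19 ± 0.41, adjusted p = 0.00434). Without GFP spleen replicate 1, the lower of the GFP spleen values, the spleen difference was 1.43 and missed the threshold (adjusted p = 0.0829). The lymph node difference was 1.47 in the fit that left out oncogenic Vav1 lymph node replicate 2 and missed the threshold when only the 4 lymph node arrays were fitted (adjusted p = 0.103).

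Srm, the spermidine synthase gene, rose with far less scatter between arrays. It read 9.87, 9.95, 9.56 and 9.55 in oncogenic Vav1 spleens and 8.64 and 8.28 in GFP spleens. Lymph nodes gave 9.58 and 9.54 with oncogenic Vav1 and 8.88 and 8.97 with GFP. No oncogenic Vav1 array of either tissue reached down to any GFP array. The difference was 2.42-fold in spleen (1.27 ± 0.15, adjusted p = 0.000564), and it passed the threshold under each of the 22 alternative settings, with adjusted p between 3.1e-06 and 0.0223. In lymph node it was 1.56-fold (0.64 ± 0.18, adjusted p = 0.0305). That call was lost without either GFP lymph node array (adjusted p = 0.17 and 0.117), with array weights (0.152) and in a fit of the lymph node arrays alone (0.12).

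Sms, which encodes the enzyme after spermidine synthase, did not follow Srm past the threshold. Its values were 8.49, 8.30, 8.56 and 8.36 in oncogenic Vav1 spleens against 8.21 and 8.14 in GFP spleens, and 8.03 and 8.05 in oncogenic Vav1 lymph nodes against 8.24 and 7.61 in GFP lymph nodes. The spleen groups did not overlap, by a narrow gap, and in lymph node the GFP values lay on both sides of the oncogenic Vav1 values. The spleen difference was 0.25 (95% interval -0.12 to 0.62, limma adjusted p = 0.283) and that in lymph node 0.12 (-0.31 to 0.55, adjusted p = 0.732). These intervals leave out a doubling, which is 1 on this scale. RefSeq lists a pseudogene of Sms, and whether the probes also read it was not tested.

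Azin1, which protects ornithine decarboxylase from antizyme, passed in lymph node and not in spleen, and the difference between those effects did not pass limma's test itself (adjusted p = 0.167). It read 10.49, 10.93, 10.35 and 10.44 in oncogenic Vav1 spleens against 10.07 and 10.52 in GFP spleens. In lymph nodes it read 10.48 and 11.66 with oncogenic Vav1 against 9.84 and 9.72 with GFP. The spleen groups overlapped and the lymph node groups did not. Azin1 was 2.44-fold higher in oncogenic Vav1 lymph node (1.29 ± 0.33, adjusted p = 0.0213), and in spleen the difference was 0.26 ± 0.28 (adjusted p = 0.52). The lymph node value was 0.70 in the fit that left out oncogenic Vav1 lymph node replicate 2 and 1.88 without replicate 1. It missed the threshold without either GFP lymph node array (adjusted p = 0.0966 and 0.126) and in the lymph node arrays alone (0.188).

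On the turnover side, Smox, the spermine oxidase gene, gave 8.79, 9.40, 8.75 and 8.83 in oncogenic Vav1 spleens against 7.83 and 8.95 in GFP spleens. It gave 8.93 and 10.09 in oncogenic Vav1 lymph nodes against 8.45 and 8.32 in GFP lymph nodes. GFP spleen replicate 2 stood above 3 of the 4 oncogenic Vav1 spleens, while the lymph node groups were apart. Neither tissue passed the threshold by itself, with differences of 0.55 ± 0.35 in spleen (adjusted p = 0.259) and 1.12 ± 0.41 in lymph node (adjusted p = 0.0828). The lymph node value of Smox rested on its 2 oncogenic Vav1 arrays: it was 1.70 when replicate 1 was left out and 0.55 when replicate 2 was. Without GFP spleen replicate 1 the spleen value was -0.0082, and without replicate 2 it was 1.11.

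Sat1, the acetyltransferase gene, showed opposite signs in the 2 tissues, neither of which passed. It read 10.27, 10.23, 10.16 and 10.44 in oncogenic Vav1 spleens against 9.75 and 10.16 in GFP spleens. In lymph nodes it read 10.19 and 9.93 with oncogenic Vav1 against 10.40 and 10.45 with GFP. The spleen groups overlapped slightly, and both oncogenic Vav1 lymph nodes were below both GFP lymph nodes. The difference was 0.32 ± 0.14 in spleen (adjusted p = 0.118) and -0.37 ± 0.16 in lymph node (adjusted p = 0.152). With 1 array left out, the Sat1 values ran from 0.11 to 0.52 in spleen and from -0.49 to -0.24 in lymph node. The spleen value passed in 4 of 22 alternative settings and changed sign with the negative control level as covariate (-0.0755). The lymph node value passed in 1 of 22, without oncogenic Vav1 lymph node replicate 1, a fit that left 1 array in that group.

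**Figure D2:**
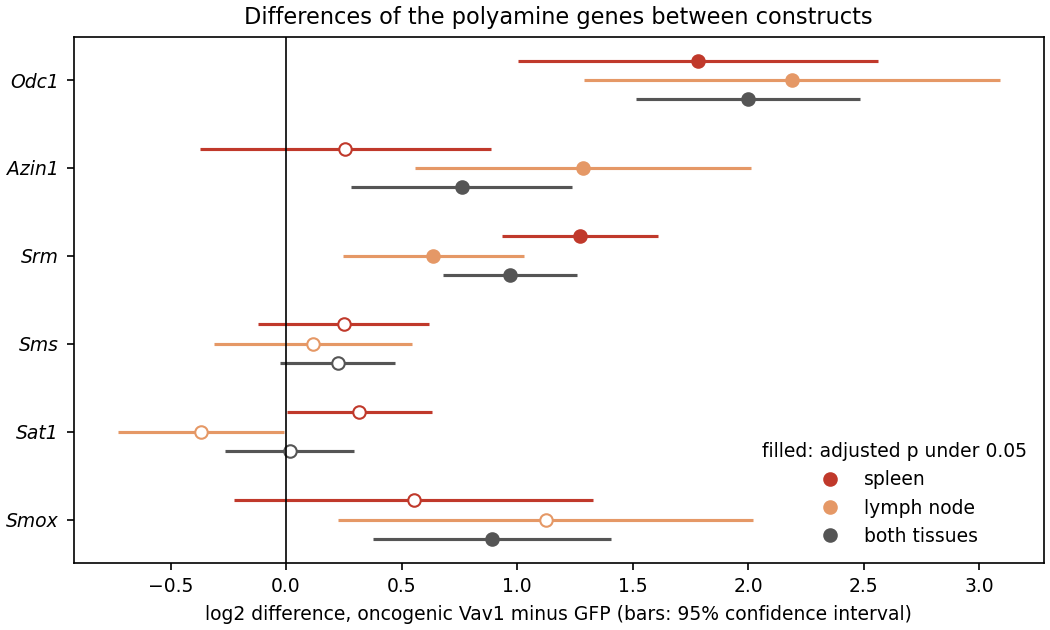
Log2 difference, oncogenic Vav1 minus GFP (horizontal axis), of the 6 measured genes for each tissue and for both together; bars are 95% intervals and filled points have an adjusted p under 0.05. Odc1 and Srm are filled in all 3 comparisons, Azin1 in lymph node (1.29) and over both tissues (0.76), Smox over both tissues (0.89), and Sms and Sat1 in none.

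Over both tissues, with tissue in the model and the animal as a random block, 4 of the 6 genes rose (Odc1, Srm, Smox and Azin1) and none fell, against 17.4% of all tested genes rising, 14.3% falling and 31.7% changing in either direction. At an unadjusted p under 0.05 the same number, 4, differed, and at least that 31.7% of all tested genes lay under it too. Odc1 was higher by 2.00 ± 0.22 (limma adjusted p = 0.000117) and Srm by 0.97 ± 0.13 (adjusted p = 0.000428). Smox was higher by 0.89 ± 0.23 (adjusted p = 0.0153), or 1.86-fold, and Azin1 by 0.76 ± 0.22 (adjusted p = 0.022). The calls of Smox and Azin1 were less secure: without the animal block their adjusted p was 0.0604 and 0.0805, and with array weights 0.0509 and 0.0681. Both calls were also lost without GFP spleen replicate 1. The within-animal correlation used by the block was negative (-0.35), which narrows the SE of a difference between constructs. The block thus made these tests less strict. Sms was at 0.22 (95% interval -0.03 to 0.47, adjusted p = 0.152). Sat1 was at 0.02 (-0.26 to 0.30, adjusted p = 0.932), its tissue differences having opposite signs.

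Whether the effect of the construct itself differed between tissues was tested as an interaction. None of the 6 genes passed limma's test, against 8.04% of all tested genes (0.933% higher and 7.11% lower). At an unadjusted p under 0.05 there were 3 of the 6, and at least 2814 of the 13393 tested genes. Azin1 had the larger lymph node difference (1.05 ± 0.43, adjusted p = 0.167), while Srm (-0.64 ± 0.24, adjusted p = 0.132) and Sat1 (-0.68 ± 0.22, adjusted p = 0.0901) leaned the other way. Sat1 passed in 2 of 21 alternative settings, on leaving out replicate 1 of oncogenic Vav1 lymph node or both arrays of the animal ONCO3. Both settings left 1 array in the oncogenic Vav1 lymph node group, so its scatter did not enter them. Odc1 had an interaction of 0.44 ± 0.53 (adjusted p = 0.641), so its response was not shown to differ by tissue. Between lymph node and spleen, over both constructs, none of the 6 passed limma's test, where 0.164% of all tested genes passed. None of the 6 had an unadjusted p under 0.05, and fewer than 2197 of all tested genes did. The differences of the 6 ran from -0.31 for Sms (adjusted p = 0.325) to 0.31 for Smox (adjusted p = 0.653).

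Ordered by group mean, Odc1 was highest in oncogenic Vav1 lymph node and then oncogenic Vav1 spleen, followed by GFP lymph node and GFP spleen; neighbours of the same construct overlapped and the constructs did not. For Srm the order was oncogenic Vav1 spleen (9.73 ± 0.21), oncogenic Vav1 lymph node (9.56 ± 0.03), GFP lymph node (8.93 ± 0.06) and GFP spleen (8.46 ± 0.26), and only the first 2 groups overlapped. Azin1 was highest in oncogenic Vav1 lymph node (11.07 ± 0.84) and lowest in GFP lymph node (9.78 ± 0.09), with the spleen groups between them and overlapping. Smox ran from oncogenic Vav1 lymph node (9.51 ± 0.82) through oncogenic Vav1 spleen (8.94 ± 0.31) to the GFP groups, both at 8.39, with overlap between neighbours. Sat1 was highest in GFP lymph node (10.43 ± 0.04) and lowest in GFP spleen (9.96 ± 0.29), with overlap between all neighbours. Sms ran from oncogenic Vav1 spleen (8.43 ± 0.12) to GFP lymph node (7.92 ± 0.45), the group in which its 2 arrays differed most.

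Markers of cell division and of erythroid cells were among several marker lists that moved with the construct. All 29 proliferation genes measured, such as Mki67 and Top2a, rose in spleen and in lymph node, and their mean lay at 8.86 to 9.48 in oncogenic Vav1 spleens against 7.02 and 7.48 in GFP spleens, and at 9.00 and 9.98 in oncogenic Vav1 lymph nodes against 7.16 and 7.22 in GFP lymph nodes. The mean of 13 erythroid genes lay at 8.19 to 9.71 in oncogenic Vav1 spleens against 6.87 and 8.14 in GFP spleens. None of the 13 passed limma's test in spleen, and their median difference was 1.03. At an unadjusted p under 0.05 there were 4 of them, and at least 5347 of the 13393 tested genes. In lymph node all 13 rose, with means of 8.30 and 10.77 in oncogenic Vav1 arrays against 5.95 and 5.78 in GFP arrays, where 7 of them (Rhag, Rhd, Ermap, Sptb, Epb42, Trim10 and Tspo2) were near background. In 6 of 22 alternative settings some of the 13 did pass in spleen, and in lymph node the number fell as low as 2. The spread shared by the 4 groups took in the scatter of the 2 oncogenic Vav1 lymph node arrays. Other lists rose as well, where 17.1% of all tested genes rose in spleen and 7.87% in lymph node. Neutrophil genes did so for 13 of 13 in spleen and 11 of 13 in lymph node, and plasma cell genes for 5 and 6 of 8. Macrophage genes rose for 8 and 3 of 13. In spleen 1 plasma cell gene fell, and 1 macrophage gene fell in each tissue. The part of any of these markers in the differences of the polyamine genes was not tested.

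**Figure D3:**
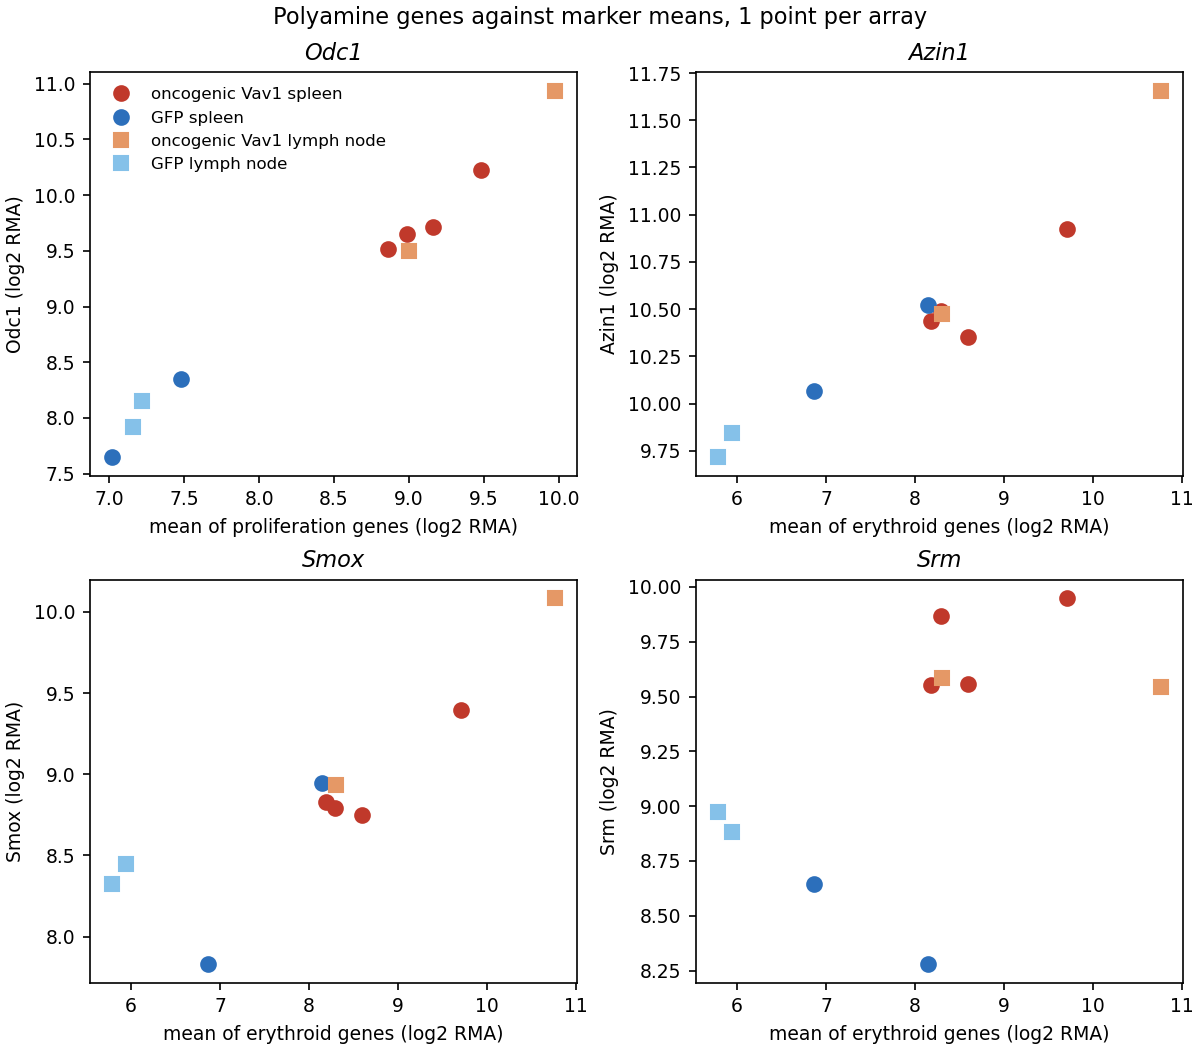
Log2 value of Odc1 against the mean of 29 proliferation genes, and of Azin1, Smox and Srm against the mean of 13 erythroid genes, with 1 point an array for all 10 arrays, coloured by group. Oncogenic Vav1 lymph node replicate 2, with the highest proliferation (9.98) and erythroid mean (10.77), is also highest for Odc1 (10.94), Azin1 (11.66) and Smox (10.09), but not for Srm (9.54).

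Within the oncogenic Vav1 arrays, the same 2 preparations stood out for 3 genes. Oncogenic Vav1 lymph node replicate 2 and oncogenic Vav1 spleen replicate 2 had the highest and next highest values of Odc1, Azin1 and Smox, and also of both marker means. They came from different animals, ONCO3 and ONCO2. The spleen of ONCO3, replicate 3, had the lowest oncogenic Vav1 spleen values of Odc1 (9.52), Azin1 (10.35) and Smox (8.75). The lymph node of ONCO2, replicate 1, was the lower oncogenic Vav1 lymph node for each of these genes (9.50, 10.48 and 8.93). Among the GFP spleens, replicate 2 was above replicate 1 for Odc1, Azin1 and Smox. It was also above for the erythroid mean (8.14 against 6.87) and the proliferation mean (7.48 against 7.02). Over the 6 oncogenic Vav1 arrays, which share 2 animals between tissues, Pearson's r was 0.98 between Odc1 and Smox, 0.99 between Odc1 and Azin1 and 0.99 between Smox and Azin1. Srm did not share this pattern, with r = 0.06 to Odc1 in those arrays, although r was 0.82 over all 10, where the construct separates both genes.

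The genes whose values ran most like each member's over the 10 arrays were picked by Pearson's r from 12903 candidates, as a description of arrays that also share construct and tissue. Odc1 ran closest to the cell cycle genes Ccna2 (r = 0.998), which encodes cyclin A2, Esco2 (0.997), which encodes a cohesin acetyltransferase, and Knl1 (0.996), which encodes a kinetochore scaffold. Those values were 0.996, 0.995 and 0.987 within the 6 oncogenic Vav1 arrays. Smox ran closest to Pola1 (0.986), a DNA polymerase subunit, Tcea1 (0.976) and Samd11 (0.976). Azin1 ran closest to the erythroid marker Trim10 (0.988), the interferon-induced gene Rsad2 (0.987) and Fn3k (0.984), which encodes fructosamine 3-kinase.

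Srm had other neighbours. They were the splicing factor gene Rnps1 (0.987), the serine synthesis gene Psat1 (0.981) and the neutrophil marker Lcn2 (0.974), which were at 0.94, 0.80 and 0.99 within the oncogenic Vav1 arrays. Sms ran closest to Zmym3 (0.921), Lsm5 (0.920) and Bcl10 (0.895). Sat1 ran closest to Ccng1 (0.951), a p53 target, Selenok (0.932) and Washc3 (0.921).

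The wider pathway was read from a list of 43 further genes that supply, use or move polyamines, of which 38 had a probe set and 30 passed the filter. In spleen 5 of the 30 rose and 1 fell, and in lymph node 4 rose and 4 fell, where 26.8% and 18.7% of all tested genes changed. Over both tissues 8 rose and 3 fell, where 17.4% of all tested genes rose and 14.3% fell. The median difference of the 30 was 0.09 in spleen and 0.05 in lymph node. Over the alternative settings the number changed ran from 2 to 8 in spleen and from 2 to 9 in lymph node.

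Among the genes of hypusination, in which spermidine is used to modify the translation factor eIF5A, Eif5a and Eif5a2 rose and the 2 modifying enzymes Dhps and Dohh did not pass in any comparison of constructs. Eif5a read 11.51 to 11.65 in oncogenic Vav1 spleens against 10.65 and 10.80 in GFP spleens, and 11.38 and 11.29 in oncogenic Vav1 lymph nodes against 11.06 and 11.23 in GFP lymph nodes. It rose in spleen (0.85 ± 0.10, limma adjusted p = 0.000564) and was at 0.19 ± 0.12 in lymph node (adjusted p = 0.304), and its interaction passed (-0.64 ± 0.16, adjusted p = 0.0342). Its paralog Eif5a2 read 6.52 to 7.03 in oncogenic Vav1 spleens against 6.04 and 6.12 in GFP spleens, and 7.08 and 7.49 in oncogenic Vav1 lymph nodes against 6.45 and 6.30 in GFP lymph nodes. It rose in both tissues, by 0.70 ± 0.17 in spleen (adjusted p = 0.0139) and by 0.91 ± 0.20 in lymph node (adjusted p = 0.0101). Each of these calls of Eif5a2 was lost in 3 of 22 alternative settings, that in spleen without either GFP spleen array (adjusted p = 0.105 and 0.0636) and that in lymph node among the lymph node arrays alone (0.109).

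Of the genes around arginine and ornithine, Aldh18a1, which encodes the enzyme that starts proline and ornithine synthesis from glutamate, rose in spleen (0.64 ± 0.12, adjusted p = 0.00379) and in lymph node (0.59 ± 0.14, adjusted p = 0.0128). These calls of Aldh18a1 were lost in 2 and 3 of 22 alternative settings (highest adjusted p 0.14 and 0.168). It was the 1 gene of 4 tested in that group to pass. Arg1 and Arg2, the arginases that make ornithine, lay below the filter. In the transport group of 9 tested genes, Slc3a2, the heavy chain of amino acid transporters that has also been linked to polyamine export, rose in spleen (0.71 ± 0.12, adjusted p = 0.00311) and lymph node (0.53 ± 0.14, adjusted p = 0.027). Slc7a1, a transporter of arginine and other cationic amino acids, rose in lymph node (0.65 ± 0.15, adjusted p = 0.0137) and was at 0.28 ± 0.13 in spleen (adjusted p = 0.136; interaction adjusted p = 0.28). In spleen Slc3a2 passed in all 22 alternative settings, but the lymph node calls of Slc3a2 and Slc7a1 were lost in 5 and 4 of 22 (highest adjusted p 0.184 and 0.145).

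The methionine group covers the cycle that supplies the aminopropyl donor and recovers its by-product. Apip, of the methionine salvage pathway, rose in spleen (0.68 ± 0.15, adjusted p = 0.00877) and was at 0.05 ± 0.17 in lymph node (adjusted p = 0.882; interaction adjusted p = 0.128). Its spleen call was lost in 2 of 22 alternative settings, including without GFP spleen replicate 1 (0.088). Adi1, a later enzyme of that pathway, fell in lymph node (-0.53 ± 0.16, adjusted p = 0.0441), and Enoph1 rose over both tissues (0.27 ± 0.09, adjusted p = 0.0376). The call of Adi1 was lost in 14 of 22 alternative settings, with -0.35 (adjusted p = 0.317) without GFP lymph node replicate 1, and that of Enoph1 in 8 of 21, with 0.17 (adjusted p = 0.266) without GFP spleen replicate 1. Mtap, the gene for the first salvage enzyme, was at 0.46 ± 0.19 in spleen (adjusted p = 0.0991) and -0.23 ± 0.22 in lymph node (adjusted p = 0.524). Mat1a, the liver form of the S-adenosylmethionine synthetase genes, is in the wider list but was not counted in this group. It fell in spleen (-0.42 ± 0.14, limma adjusted p = 0.0434), a call lost in 12 of 21 alternative settings. In lymph node its mean lay the other way, at 5.87 with oncogenic Vav1 against 5.43 with GFP, where it was near background.

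Among paralogs and other breakdown enzymes, Amd2, a near-identical copy of Amd1, rose over both tissues (0.66 ± 0.21, adjusted p = 0.0312). It read 7.11, 7.69, 7.26 and 7.09 in oncogenic Vav1 spleens against 6.82 and 6.97 in GFP spleens, and 6.97 and 8.29 in oncogenic Vav1 lymph nodes against 6.59 and 6.80 in GFP lymph nodes. Its highest value came from the same lymph node array as those of Odc1, Smox and Azin1, and its call was lost in 5 of 21 alternative settings, including without the animal block (adjusted p = 0.0862). Reads of the 2 copies by these probes cannot be told apart here, so the value may include Amd1.

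The falls of the wider list in lymph node included those of Aoc3, an amine oxidase of fat and vessel walls (-3.53 ± 0.31, adjusted p = 5.24e-05), the vesicular polyamine transporter Slc18b1 (-2.19 ± 0.23, adjusted p = 0.00015) and the caveolin gene Cav1 (-1.46 ± 0.20, adjusted p = 0.000635). Slc18b1 was near background in oncogenic Vav1 lymph node (mean 4.93), so its difference has no exact size there. The call of Cav1 was lost in the lymph node arrays alone (adjusted p = 0.0598). Aoc3 read 5.77 and 6.97 in oncogenic Vav1 lymph nodes against 9.85 and 9.94 in GFP lymph nodes. The 9 fat and stroma markers, such as Adipoq, all fell in lymph node as well, with a mean of 7.99 and 8.35 in oncogenic Vav1 arrays against 10.44 and 10.47 in GFP arrays. Their part in the 3 falls was not tested.

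**Figure D4:**
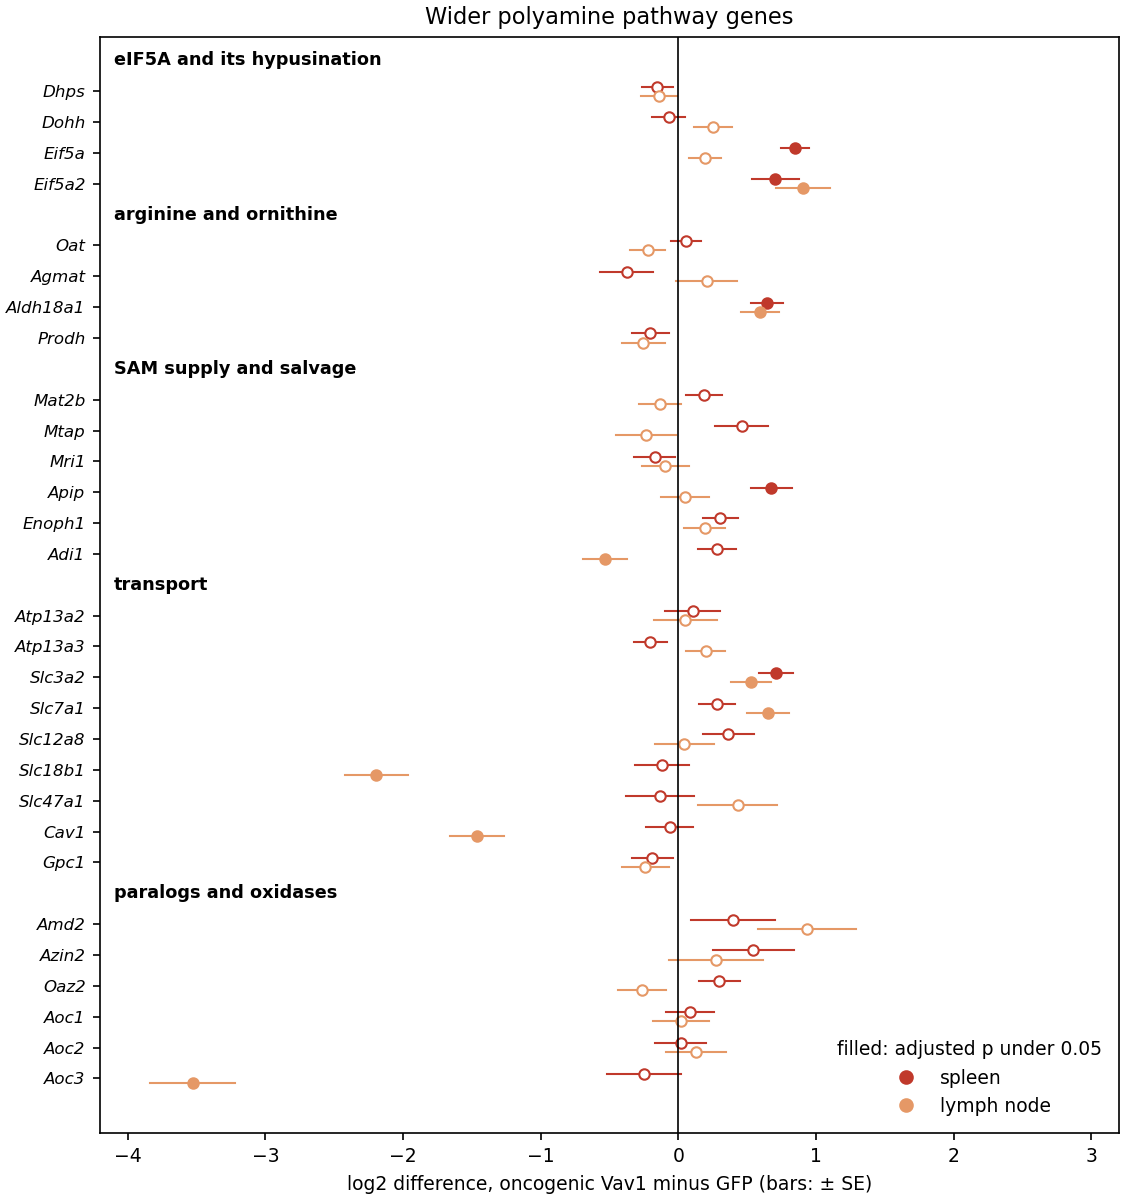
Log2 difference, oncogenic Vav1 minus GFP (horizontal axis), in spleen and in lymph node for 29 tested genes of the wider polyamine pathway, grouped by role; bars are ±1 SE and filled points have an adjusted p under 0.05. Most genes lie near 0, with Eif5a (0.85 in spleen), Eif5a2, Aldh18a1 and Slc3a2 to the right, and Aoc3 (-3.53), Slc18b1 and Cav1 in lymph node to the left.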

How the data were processed

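Total RNA from 10 preparations of spleen or lymph node was hybridised to Affymetrix arrays. The values are log2 expression levels that the authors made with RMA under R 3.6.3 and deposited as one table, per the submitters' processing notes; the genome build and annotation version are not given in the sources used here, and the number of arrays limits the precision. RMA includes quantile normalization, which sets levels relative to each array's other transcripts. Of 29129 probe sets, 19572 had 1 gene symbol, for 19505 genes, and 55 genes with several probe sets were read by that with the highest mean. Genes were tested where at least 2 arrays put them above that array's 40th percentile, leaving 13393 to test and 6112 out. The same percentile marks a group mean as near background.

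Tests were run in R 4.3.3, using limma 3.58.1 with statmod 1.5.0 (eBayes with a variance trend, two-sided), with Benjamini-Hochberg adjustment over all 13393 genes and a threshold of 0.05. The comparisons within a tissue came from a model of the 4 groups (6 residual degrees of freedom). Those over both tissues and between tissues came from an additive model in which animal was a random effect (within-animal correlation -0.35, 7 residual degrees of freedom), and the interaction from a model with the same random effect (-0.11). Differences are log2, oncogenic Vav1 minus GFP or lymph node minus spleen, with their SE or 95% interval. Fits were tested on simulated data. Promoter sequences are RefSeq's, with a window for 6 of the 8 members.

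The members and lists were chosen with earlier results of these data known. Named were all members, the wider-pathway genes with the smallest p or past the threshold, Vav1 and the Myc genes, the 3 genes most correlated with each member (gene models, receptor segments and small RNA genes left out) and a few markers. Alternatives covered the filter, normalization, array weights, blocks, the negative control level as covariate, single tissues and each array or the animal ONCO3 left out. Correlations within the oncogenic Vav1 arrays were added after seeing the data.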

Additional observations from a re-analysis of the deposited data

Results flagged for a closer look

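Smox in oncogenic Vav1 spleen replicate 2, at 9.40 on the log2 scale, stood apart from the other 3 arrays of its group, which lay between 8.75 and 8.83. About 1 in 20 groups would show such a gap by chance, and each of the 6 measured genes was checked in this group. The erythroid mean (9.71) and the proliferation mean (9.48) were also highest in that array among the oncogenic Vav1 spleens, and their part in the Smox value was not tested.

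Sat1 differed in the direction of its construct difference between tissues. All 4 oncogenic Vav1 spleens were above the GFP spleen mean and both oncogenic Vav1 lymph nodes were below the GFP lymph node mean, giving an interaction of -0.68. The test of that difference did not pass after adjustment (limma adjusted p = 0.0901), and passed in 2 of 21 alternative settings, both with 1 oncogenic Vav1 lymph node array left. T cell genes also ran in opposite directions, with means of 8.64 to 8.98 in oncogenic Vav1 spleens against 8.32 and 8.34 in GFP spleens, and 8.69 and 7.63 in oncogenic Vav1 lymph nodes against 9.30 and 9.32 in GFP lymph nodes. Among the oncogenic Vav1 spleens, replicate 3 had the highest mean of these T cell genes (8.98) and the lowest Sat1 value (10.16). Of the oncogenic Vav1 lymph nodes, replicate 2 was the lower for both (7.63 and 9.93). The part of T cell genes in the Sat1 values was not tested.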

How the results depend on the processing

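Of 642 values of the members under other settings, 585 kept their direction and side of the threshold, 18 lost and 14 gained the threshold, and 25 changed sign. The count of members changed in spleen (2) ranged from 1 to 3 with 1 array left out. That in lymph node (3) ranged from 1 to 5 and was 0 with the lymph node arrays alone. That over both tissues (4) ranged from 2 to 4 and was 2 with array weights and 2 without the animal block. The interaction count (0) ranged from 0 to 3 and was 2 without both arrays of ONCO3. The cause of these shifts was not tested, except that fewer arrays were fitted. Counts over all genes were 3596 in spleen (916 to 5849 over the settings), 2500 in lymph node (433 to 4650), 4247 over both tissues (2112 to 7335), 1077 for the interaction (384 to 4201) and 22 between tissues (3 to 2750).

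The same-numbered oncogenic Vav1 and GFP arrays carry different animal names, and their deviations correlated at 0.04 and 0.30 in spleen and -0.06 in lymph node, so the numbers were not read as pairs. With the replicate block 2, 4 and 5 members changed in spleen, lymph node and over both tissues; Smox in lymph node (1.12, adjusted p = 0.0455) and Sms over both (0.23, adjusted p = 0.0403) were added, and Odc1 in spleen was 1.97 (adjusted p = 0.00549).

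Values that changed sign were all below the threshold, and their cause was not tested. With the negative control level as covariate they were Sat1 in spleen (-0.0755), over both tissues (-0.21) and between tissues (-0.18), Srm between tissues (-0.0184) and Vav1 in spleen (-0.27) and over both tissues (-0.0337). With quantile normalization they were Sat1 over both tissues (-0.10) and the interaction of Sms (0.0293), and with array weights Smox (-0.0014) and Azin1 (-0.37) between tissues. Without both arrays of ONCO3 they were the interactions of Odc1 (-0.47) and Smox (-0.15) and the tissue differences of Odc1 (-0.10) and Azin1 (-0.27). With 1 array left out, sign changes came with these ranges: Smox in spleen -0.0082 to 1.11, Sms in lymph node -0.20 to 0.43, Vav1 in lymph node -0.34 to 0.56, and Sat1 over both tissues -0.17 to 0.115. For the interaction they were Odc1 -0.39 to 1.13, Sms -0.45 to 0.18 and Smox -0.0877 to 1.15. Between tissues they were Odc1 -0.0489 to 0.46, Srm -0.0176 to 0.24, Sat1 -0.0533 to 0.16 and Azin1 -0.22 to 0.28.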

Other observations

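Of 9 tested genes of the Myc network, 3 rose and 1 fell in spleen, and 1 rose and 1 fell in lymph node, where 26.8% of all tested genes changed in spleen and 18.7% in lymph node; Mycn lay below the filter. Myc read 9.96, 9.81, 9.97 and 9.87 in oncogenic Vav1 spleens against 9.44 and 9.36 in GFP spleens, and 9.89 and 9.59 in oncogenic Vav1 lymph nodes against 9.20 and 9.15 in GFP lymph nodes. The groups did not overlap in either tissue. Myc rose by 0.50 ± 0.12 in spleen (limma adjusted p = 0.0116) and by 0.56 ± 0.13 in lymph node (adjusted p = 0.0157). Each of these calls was lost in 4 of 22 alternative settings. In spleen they were quantile normalization over the genes (adjusted p = 0.0681), the negative control level as covariate (0.227) and leaving out either GFP spleen array (0.0643 and 0.0787). In lymph node they were array weights (0.063), the lymph node arrays alone (0.192) and leaving out either GFP lymph node array (0.086 and 0.111). Over both tissues Myc rose by 0.53 ± 0.08 (limma adjusted p = 0.000726), a call kept in all 21 alternative settings. Of the 9 genes, 5 rose and 1 fell over both tissues, where 17.4% of all tested genes rose and 14.3% fell. Max, the partner of Myc, rose in spleen (0.53 ± 0.16, adjusted p = 0.0303) and was at 0.51 ± 0.18 in lymph node (adjusted p = 0.0788); its spleen call was lost in 10 of 22 alternative settings. Mxd1, which encodes an antagonist that also pairs with Max, rose in spleen (0.96 ± 0.27, adjusted p = 0.0247), a call lost in 5 of 22 settings (highest adjusted p 0.214, without GFP spleen replicate 1). Mxd4, another antagonist, fell in spleen (-0.57 ± 0.16, adjusted p = 0.0242) and in lymph node (-0.73 ± 0.18, adjusted p = 0.0195). These calls of Mxd4 were lost in 5 and 4 of 22 settings (highest adjusted p 0.191 and 0.153).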
